A study of Mus musculus with 18 samples.

Results

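The thyroid glands of mice homozygous for the K146Q substitution in thyroid hormone receptor β (THRB) were compared with the glands of WT mice by RNA-Seq of total RNA, with 3 K146Q and 3 WT libraries, each from a separate mouse. The comparison covered every gene that reached 0.5 CPM in at least 3 of the 6 thyroid libraries, which was 15200 of the 24054 genes in the table. CPM here is the deposited normalized value, in which reads are scaled to an adjusted library size. Of the 8854 genes left out, 4786 had no read in any thyroid library. At the edge of this filter, 2900011O08Rik had a third-highest value of 0.505 CPM and was kept, and 4930562F07Rik had 0.496 CPM and was left out. The mice were untreated males of the strain C57BL/Ntac, aged 3 months. K146Q mice carried the knock-in in the whole body, which exchanges a lysine in the DNA-binding domain of all THRB isoforms for glutamine. The knock-in line had gone through 3 or more backcrosses to the background from which the WT mice came. Dissected tissue was used with no sorting of cells stated, so all cell types of the gland and any attached tissue could contribute RNA. Mice are named by the numbers in the labels (WT 1, 2 and 43; K146Q 60, 62 and 83), and values per library are given in that order throughout.

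The thyroid follicle is a sphere of epithelial cells around a store of thyroglobulin. Its cells take up iodide, attach it to tyrosines of thyroglobulin with peroxide made at the apical membrane, and later take the protein back up and digest it in lysosomes to release thyroid hormone. Thyrotropin (TSH) from the pituitary drives each of these steps through the TSH receptor and cAMP, and thyroid hormone bound to THRB holds TSH production down. The gland also holds C cells, which make calcitonin, blood vessels, fibroblasts and macrophages, and it lies against parathyroid glands, fat and muscle.

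The thyroid libraries held between 18611998 and 21230050 reads, and 3 reads corresponded to between 0.149 and 0.190 CPM. Over the tested genes the log2 values correlated at r = 0.977 to 0.980 between WT libraries, 0.984 to 0.991 between K146Q libraries and 0.914 to 0.943 across genotypes. Libraries of the same genotype differed in attached or contained tissue. Summed skeletal muscle markers ranged from 679.8 CPM in WT 1 to 12657 CPM in WT 43. Summed red blood cell genes were 3258 CPM in WT 43 and between 364 and 695 CPM elsewhere. The thymocyte recombinase Rag1 had 163 reads in WT 2 and none in the other 5 libraries. Rn45s, the precursor of ribosomal RNA, was listed at 6416, 11709 and 14609.6 CPM in WT and 6498, 32149 and 40512 CPM in K146Q mice.

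Thrb, the mutated gene (GRCm38 chr14:17660261-18038090, plus strand), measured 14.9, 16.3 and 15.6 CPM in WT and 7.19, 5.64 and 4.98 CPM in K146Q mice. Every K146Q library was below every WT library (log2 change -1.33, SE 0.15, adjusted p = 0.000647; limma, Benjamini-Hochberg adjusted over all genes tested, as for each adjusted p given here). Gene-level values cannot show the exchanged base, so this level does not check the genotype. Thra, which encodes the other thyroid hormone receptor, was 47.7 ± 8.16 CPM in WT and 34.2 ± 1.95 CPM in K146Q mice (means ± SD, n = 3 each, here and throughout; log2 change -0.46, SE 0.13, adjusted p = 0.0233), and that call was lost without K146Q 60, 62 or 83 (adjusted p = 0.0595, 0.0549 and 0.0676).

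The genotypes differed across much of the thyroid transcriptome. At an adjusted p under 0.05, 5746 genes (37.8% of those tested) were called, 2988 higher (19.7%) and 2758 lower (18.1%) in K146Q mice, so that 52.0% of the calls were higher. The shares of 19.7% and 18.1% are the background beside which the counts of each gene list are to be read. Without the 10 genes of highest mean in the library totals, 2484 genes were called higher and 3605 lower, and 40.8% of the calls were higher. That rescaling moved the median log2 change over all tested genes from -0.03 to -0.12. A total of 1155 genes (7.6%) were called higher with a log2 change of at least 1, and 832 (5.47%) lower by as much. At a log2 change of 3 or more, 110 genes were higher and 26 lower. The libraries of the genotypes did not overlap at 7956 genes (52.3%). Leaving out K146Q 62 lowered the calls to 3612. Changes are on the log2(CPM + 0.5) scale, which understates those of genes near 0.

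**Figure D1:**
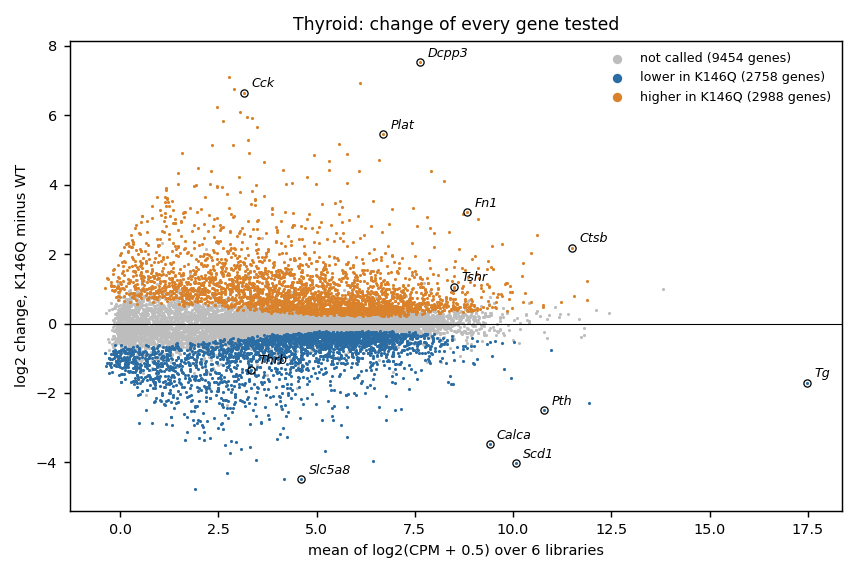
Each point is a gene tested in thyroid, with the mean log2(CPM + 0.5) over 6 libraries on the x axis and the log2 change of K146Q against WT on the y axis; orange marks the 2988 genes called higher, blue the 2758 called lower and gray the rest. Tg stands alone at the right at a log2 change of -1.71, and the largest rises, such as Dcpp3 at 7.53, reach further from 0 than the largest falls, such as Slc5a8 at -4.48.

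Of the 12 genes with the largest rises, all but Dcpp1, Dcpp3, Plat and Gm266 had a WT mean below 1 CPM. The 12 largest rises and 12 largest falls were taken from called genes whose genotypes did not overlap. Sprr2g, Btn1a1, Cck and Fgg were below 0.5 CPM in every WT library and passed the filter through their K146Q libraries alone. In all, 131 tested genes did so, and the p-values of such genes are given as description only. Cck, the precursor of the gut and brain peptide cholecystokinin, measured 0.379, 0.380 and 0.421 CPM in WT and 89.7, 76.1 and 102 CPM in K146Q mice (log2 change 6.64, SE 0.15, adjusted p = 1.15e-06). Adcy8, an adenylyl cyclase stimulated by calcium and calmodulin, measured 0.821, 0.253 and 0.541 CPM in WT and 63.04, 70.2 and 70.9 CPM in K146Q mice (log2 change 6.08, SE 0.21, adjusted p = 1.16e-05). Btn1a1, a membrane protein of milk fat globules, measured 0.442, 0.0633 and 0.180 CPM in WT and 88.5, 66.8 and 75.3 CPM in K146Q mice (log2 change 6.75, SE 0.22, adjusted p = 7.65e-06). The 3 genes were thus below 1 CPM in every WT library and above 60 CPM in every K146Q library.

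Fgg, the γ chain of fibrinogen, rose from 0.143 ± 0.0899 CPM in WT to 49.4 ± 16.2 CPM in K146Q mice (log2 change 6.24, SE 0.25, adjusted p = 1.38e-05), and Plat, the tissue plasminogen activator, was expressed in both genotypes. Plat measured 16.99, 12.5 and 16.2 CPM in WT and 664, 679 and 704 CPM in K146Q mice (log2 change 5.45, SE 0.12, adjusted p = 1.15e-06). Prom1, a protein of membrane protrusions, rose from 0.869 ± 0.474 CPM in WT to 79.99 ± 16.97 CPM in K146Q mice, and Hs3st4, a heparan sulfate sulfotransferase, from 0.960 ± 1.15 CPM in WT to 73.7 ± 1.40 CPM in K146Q mice. Coch, a secreted protein of the inner ear, rose from 0.333 ± 0.149 CPM in WT to 50.2 ± 26.95 CPM in K146Q mice and was highest in K146Q 60. Gm266 rose from 1.22 ± 0.861 CPM in WT to 79.8 ± 9.68 CPM in K146Q mice. Sprr2g, a member of the small proline-rich family of the cornified envelope that is annotated as a polymorphic pseudogene, had 4 reads in the 3 WT libraries together and 4371 in the 3 K146Q libraries (log2 change 7.10, SE 0.23, adjusted p = 7.65e-06). Its log2 change lay between 6.21 and 9.94 under the other settings.

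Dcpp1 and Dcpp3, secreted proteins known from salivary and lacrimal glands, are near-identical neighbors on chromosome 17, so reads may be divided between them uncertainly. Dcpp3 (GRCm38 chr17:23917458-23919441) measured 38.3, 1.52 and 39.9 CPM in WT and 2544, 3513 and 2221 CPM in K146Q mice (log2 change 7.53, SE 1.05, adjusted p = 0.00141). Dcpp1 measured 15.7, 0.443 and 14.9 CPM in WT and 778, 881 and 631 CPM in K146Q mice (log2 change 6.94, SE 0.99, adjusted p = 0.00156). In WT 2 both were far below the other WT libraries. No overlap between genotypes was a condition of choosing them. The 9 tested genes of the salivary gland list included 4 called higher (Dcpp1, Dcpp2, Dcpp3 and Aqp5) and 3 called lower. These shares were 44.4% and 33.3%, beside backgrounds of 19.7% and 18.1%. The 3 that fell were Amy1, the salivary amylase (8.66 ± 0.402 CPM in WT and 2.13 ± 1.002 CPM in K146Q mice), Bhlha15, a factor of secretory cells (38.9 ± 2.30 CPM in WT and 13.7 ± 5.31 CPM in K146Q mice), and Egf (12.1 ± 4.10 CPM in WT and 4.60 ± 1.22 CPM in K146Q mice). Smgc, Pip and Bpifa2, which define salivary gland, had no read in any library.

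The 12 largest falls included genes of follicular cells, of endocrine secretory granules and of fat. Slc5a8, a sodium-coupled monocarboxylate transporter of the follicular apical membrane, measured 118, 136 and 94.7 CPM in WT and 3.92, 4.23 and 6.21 CPM in K146Q mice (log2 change -4.48, SE 0.19, adjusted p = 1.38e-05). Greb1, an early estrogen receptor target, measured 24.8, 41.002 and 23.6 CPM in WT and 1.49, 0.940 and 0.645 CPM in K146Q mice (log2 change -4.30, SE 0.28, adjusted p = 7.55e-05). Snx31, a sorting nexin, fell from 19.8 ± 6.50 CPM in WT to 0.223 ± 0.120 CPM in K146Q mice (log2 change -4.77, SE 0.27, adjusted p = 4.70e-05). Snx31 was below 0.5 CPM in every K146Q library and passed the filter through its WT libraries alone. The genotypes did not overlap for these 3 genes, but that was a condition of choosing them.

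Scg2, Pcsk1 and Pcsk2 encode a granin and both prohormone convertases of endocrine secretory granules, and Pnoc encodes the nociceptin precursor. Scg2 measured 370.4, 356 and 301 CPM in WT and 23.6, 16.5 and 25.9 CPM in K146Q mice (log2 change -3.95, SE 0.17, adjusted p = 1.38e-05). Pcsk2 fell from 134 ± 11.8 CPM in WT to 10.2 ± 2.94 CPM in K146Q mice, Pcsk1 from 29.6 ± 7.72 CPM in WT to 1.95 ± 0.633 CPM in K146Q mice and Pnoc from 24.96 ± 3.25 CPM in WT to 1.45 ± 0.422 CPM in K146Q mice. The fat genes among the largest falls were Ucp1, the uncoupling protein of brown fat, Cidea, a lipid droplet protein, and Scd1, a fatty acid desaturase. Scd1 measured 5893, 4637 and 2971 CPM in WT and 378, 174 and 286 CPM in K146Q mice (log2 change -4.02, SE 0.33, adjusted p = 0.000159). Ucp1 varied widely within each genotype, at 171, 120.2 and 29.2 CPM in WT and 7.38, 8.58 and 0.293 CPM in K146Q mice (log2 change -4.47, SE 1.001, adjusted p = 0.0109). Cidea fell from 42.6 ± 9.13 CPM in WT to 2.76 ± 1.92 CPM in K146Q mice. Fmn2, a formin, fell from 33.7 ± 4.85 CPM in WT to 2.61 ± 1.34 CPM in K146Q mice, and Inmt, a methyltransferase, from 20.9 ± 1.22 CPM in WT to 1.72 ± 1.56 CPM in K146Q mice.

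By CPM, which is not corrected for gene length, Tg stood first among the WT genes. Tg, which encodes thyroglobulin (GRCm38 chr15:66670753-66850721), took 27.6%, 29.0% and 23.8% of all WT reads and 7.97%, 8.80% and 11.5% of all K146Q reads, library by library. It measured 349907, 357296 and 293439 CPM in WT and 83869, 96214 and 130421 CPM in K146Q mice (log2 change -1.71, SE 0.18, adjusted p = 0.000435). The mean-variance trend of the main fit was capped for the sake of this gene. The Tg call was kept in 9 of 11 other settings and in all 6 fits with a library left out. It was lost with the uncapped trend (adjusted p = 0.82) and under quantile normalization, which sets its change to 0 by construction. Rn45s, Chga, Eef1a1, Scd1, Pth, Hsp90b1, Hspa5 and Calr were also among the 10 highest in WT. Of these 8, Chga, Scd1 and Pth were called lower, and the other 5 did not pass the test.

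**Figure D2:**
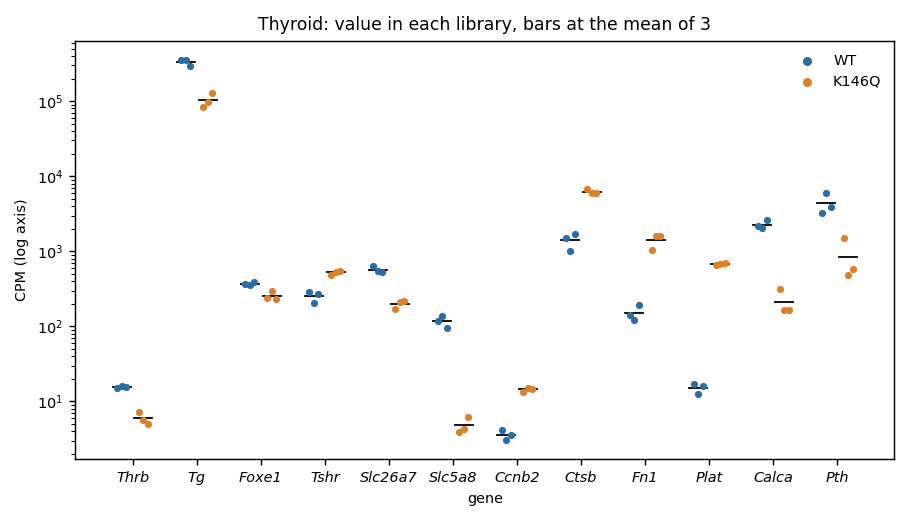
CPM of 12 genes on a log axis, with a point for each library (blue WT, orange K146Q) and a bar at the mean of 3. The genotypes do not overlap for any of the 12 genes, with Thrb, Tg, Foxe1, Slc26a7, Slc5a8, Calca and Pth lower in K146Q mice and Tshr, Ccnb2, Ctsb, Fn1 and Plat higher. The 12 genes were picked for display, and 52.3% of all genes tested did not overlap.

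The follicular steps of hormone synthesis did not move as a unit. Of 8 tested genes of iodide transport, 2 were called higher (background 19.7%) and 3 lower (background 18.1%), with a median log2 change of 0.06 that turned negative in 4 of the other settings, without WT 2 (-0.41) and without K146Q 83 (-0.098). Besides Slc5a8, the genes called lower were Slc26a7, an apical anion exchanger, and Clcn5, an endosomal chloride/proton exchanger. Slc26a7 measured 638, 541 and 532 CPM in WT and 172, 209 and 219 CPM in K146Q mice (log2 change -1.51, SE 0.13, adjusted p = 0.000184), and Clcn5 30.6 ± 1.21 CPM in WT and 18.7 ± 4.54 CPM in K146Q mice. The genes called higher were the chloride channel Ano1 (70.2 ± 7.88 CPM in WT and 99.2 ± 9.60 CPM in K146Q mice) and the potassium channel Kcnq1 (8.71 ± 0.528 CPM in WT and 14.6 ± 1.03 CPM in K146Q mice). Slc5a5, the sodium-iodide symporter, was 489 ± 129.6 CPM in WT and 588 ± 82.5 CPM in K146Q mice (log2 change 0.29, SE 0.20, adjusted p = 0.298; 95% interval -0.18 to 0.76). Slc26a4, the anion exchanger pendrin, measured 15.7, 1.14 and 14.7 CPM in WT and 6.39, 9.34 and 10.8 CPM in K146Q mice (log2 change 0.31, SE 0.81, adjusted p = 0.793). Its WT 2 value lay far below the other WT libraries, and without WT 2 its log2 change was -0.78 (adjusted p = 0.0347).

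In the list of genes for thyroglobulin, peroxide and iodide recovery, none of the 7 reported here was called higher by limma, and Duox2 and, with the capped trend, Tg were called lower (28.6%, background 18.1%). At an unadjusted p under 0.05, 1 of the 7, Duoxa2, was higher, and DESeq2 called 1 higher where edgeR called 0. Limma also called 1 higher without WT 2, WT 43 or K146Q 83, and 3 lower without WT 2. Duox2, the oxidase that makes the peroxide, was called lower (log2 change -0.95, SE 0.14, adjusted p = 0.00199), and its maturation factor Duoxa2 was 54.7 ± 6.02 CPM in WT and 72.6 ± 12.01 CPM in K146Q mice without passing the test (log2 change 0.40, SE 0.14, adjusted p = 0.0537). Iyd, which recovers iodide from iodotyrosines, was 846 ± 132 CPM in WT and 722 ± 31.9 CPM in K146Q mice (log2 change -0.22, SE 0.14, adjusted p = 0.270; 95% interval -0.55 to 0.12).

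Among 8 tested genes of hormone metabolism and export, 2 were called higher (25%, near the background of 19.7%) and 3 lower (37.5%, background 18.1%). With any 1 K146Q library left out, 1 was called higher, Dio3, because Crym then no longer passed the filter and was not tested. With totals taken without the top 10 genes, 5 were called lower. The 3 lower were the amino acid and hormone transporters Slc16a10 (14.6 ± 3.75 CPM in WT and 5.94 ± 1.81 CPM in K146Q mice) and Slc7a8 (19.7 ± 4.77 CPM in WT and 11.4 ± 0.969 CPM in K146Q mice) and the activating deiodinase Dio2. The 2 higher were Dio3, the inactivating deiodinase, and Crym, a cytosolic binder of T3, which were near 0 in WT thyroid. Crym measured 0.189, 0.380 and 0.361 CPM in WT and 2.38, 2.174 and 1.76 CPM in K146Q mice (log2 change 1.69, SE 0.21, adjusted p = 0.000860). Its WT values were all below 0.5 CPM, so it passed the filter through its K146Q libraries alone.

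Of the 5 transcription factors that maintain follicular identity, 3 were called higher (60%, background 19.7%) and 1 lower (20%, near the background of 18.1%). Their median log2 change was 0.38. Nkx2-1 measured 409.8, 391 and 387 CPM in WT and 504, 576 and 467 CPM in K146Q mice (log2 change 0.38, SE 0.12, adjusted p = 0.0356). Pax8 was 445 ± 20.3 CPM in WT and 581 ± 37.7 CPM in K146Q mice (log2 change 0.38, SE 0.11, adjusted p = 0.0266). The Nkx2-1 call was kept in 8 and the Pax8 call in 9 of 11 other settings, and both were lost under quantile normalization, with totals taken without the top 10 genes, and without WT 1, WT 43 or K146Q 62 (log2 changes from 0.29 to 0.40 without these libraries). Nkx2-1 was also lost without WT 2 or K146Q 60 (adjusted p = 0.0572 and 0.0713). Hhex, which was called in every setting, was 130.1 ± 19.9 CPM in WT and 204 ± 11.97 CPM in K146Q mice (log2 change 0.66, SE 0.12, adjusted p = 0.00533). Foxe1 went the other way, at 369, 353 and 390.02 CPM in WT and 242, 297 and 233 CPM in K146Q mice (log2 change -0.53, SE 0.12, adjusted p = 0.0106). Glis3 was 53.5 ± 15.5 CPM in WT and 35.2 ± 8.60 CPM in K146Q mice without passing the test. The follicular markers thus divided, with Tshr, Nkx2-1 and Pax8 called higher, Tg and Foxe1 lower, and Slc5a5 not called, and all were well expressed in every library.

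Tshr, the TSH receptor, measured 284, 203 and 271 CPM in WT and 489.6, 525 and 552 CPM in K146Q mice (log2 change 1.06, SE 0.15, adjusted p = 0.00131), so each K146Q library lay above each WT library. Across 40 genes of the TSH receptor, cAMP and protein kinase A pathway, 11 were called higher (27.5%) and 10 lower (25%), shares not far from the backgrounds of 19.7% and 18.1%, and the median log2 change was -0.04. The number called lower was 6 without WT 1 or WT 2, 5 without K146Q 60 and 3 without K146Q 62. Of the cyclases that make cAMP, Adcy3 rose from 28.4 ± 1.92 CPM in WT to 60.2 ± 18.9 CPM in K146Q mice and Adcy5 fell from 10.7 ± 1.72 CPM in WT to 4.999 ± 1.07 CPM in K146Q mice. Adcy7 was also called higher, and Adcy6 and Adcy9 lower. The cyclase Adcy8, whose larger rise is given above, is not in this list. Phosphodiesterases, which break cAMP down, included Pde4b and Pde1c among the rises and Pde4a among the falls. Pde4b measured 23.4, 20.2 and 17.98 CPM in WT and 59.6, 60.001 and 60.1 CPM in K146Q mice (log2 change 1.53, SE 0.11, adjusted p = 8.88e-05), and Pde1c rose from 25.9 ± 7.54 CPM in WT to 61.5 ± 8.28 CPM in K146Q mice. Arrb2, an arrestin that uncouples receptors, rose from 10.6 ± 1.07 CPM in WT to 24.3 ± 2.91 CPM in K146Q mice. Gnas, which encodes the stimulatory G protein subunit, fell from 2609 ± 353 CPM in WT to 1531 ± 176 CPM in K146Q mice (log2 change -0.77, SE 0.14, adjusted p = 0.00515).

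Immediate-early and cAMP-induced genes are transcribed within minutes to hours of a stimulus. Of 21 tested, 9 were called higher and 1 lower, against backgrounds of 19.7% and 18.1%, with a median log2 change of 0.65. Without K146Q 62, 5 were called higher. Areg, an EGF receptor ligand, measured 21.9, 3.73 and 39.6 CPM in WT and 163, 131 and 189 CPM in K146Q mice (log2 change 3.35, SE 0.72, adjusted p = 0.00894). Junb measured 70.5, 31.8 and 43.2 CPM in WT and 159, 166 and 166 CPM in K146Q mice (log2 change 1.82, SE 0.25, adjusted p = 0.00129), and Nr4a2 rose from 40.1 ± 8.06 CPM in WT to 89.98 ± 13.7 CPM in K146Q mice. The gene called lower was Fosb (6.61 ± 1.67 CPM in WT and 3.47 ± 1.53 CPM in K146Q mice), whose genotypes overlapped and whose call was kept in 6 of 11 other settings and in 2 of 6 fits with a library left out. Fos was 19.2 ± 11.7 CPM in WT and 34.9 ± 5.90 CPM in K146Q mice without passing the test (adjusted p = 0.0680), but was called without WT 1, its highest WT library (adjusted p = 0.00241). Nr4a1 was 38.9 ± 3.08 CPM in WT and 35.1 ± 5.61 CPM in K146Q mice (adjusted p = 0.374). WT 2 had the lowest Areg and Junb values.

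The 11 genes known to be raised by T3 gave 7 called lower (63.6%, background 18.1%) and none higher, with a median log2 change of -0.53. The 7 include Thrb, the mutated gene itself. Thrsp, a regulator of lipogenesis, measured 162, 164 and 181 CPM in WT and 22.3, 15.1 and 14.6 CPM in K146Q mice (log2 change -3.27, SE 0.16, adjusted p = 2.04e-05). Klf9 was 164 ± 7.59 CPM in WT and 92.2 ± 4.35 CPM in K146Q mice, and Hr, a corepressor, 51.2 ± 6.15 CPM in WT and 26.6 ± 3.07 CPM in K146Q mice. Thrsp and Slc2a4 (45.2 ± 13.9 CPM in WT and 13.2 ± 7.99 CPM in K146Q mice), the insulin-responsive glucose transporter, are also abundant in fat, whose markers fell as described below. Mbp, a myelin protein that was called lower too (72.1 ± 8.96 CPM in WT and 49.8 ± 6.12 CPM in K146Q mice), also belongs to the nerve and Schwann cell list, of which 7 of 12 genes were called lower. Atp2a1, the highest member of the T3 list, was not called and also belongs to the skeletal muscle list. Summed markers of that list ranged from 679.8 CPM in WT 1 to 12657 CPM in WT 43. The part of fat, nerve and skeletal muscle in these values was not tested.

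All 37 genes of the mitosis list were called higher in K146Q thyroid (background 19.7%), and in none did a K146Q library reach down to a WT library (52.3% of all genes tested did not overlap in either direction). The median log2 change was 1.46, and the range ran from 0.58 for Hmmr to 2.02 for Tpx2. Over fits that each left out a library, between 35 and 37 were called. The promoters of genes expressed in mitosis commonly carry the CHR element TTTGAA and CCAAT boxes, which are bound by MuvB-containing complexes and by NF-Y. To show both elements in genes that rose here, 3 promoters are printed with each TTTGAA and CCAAT of either strand in capitals (ATTGG is CCAAT read on the other strand). They are the RefSeq windows from 250 bases before to 50 bases after the start on GRCm38.p6, written in the direction of transcription, for Ccnb2 (chr9:70421505-70421804, minus strand), Cdk1 (chr10:69352863-69353162, minus strand) and Plk1 (chr7:122159185-122159484, plus strand).

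Ccnb2: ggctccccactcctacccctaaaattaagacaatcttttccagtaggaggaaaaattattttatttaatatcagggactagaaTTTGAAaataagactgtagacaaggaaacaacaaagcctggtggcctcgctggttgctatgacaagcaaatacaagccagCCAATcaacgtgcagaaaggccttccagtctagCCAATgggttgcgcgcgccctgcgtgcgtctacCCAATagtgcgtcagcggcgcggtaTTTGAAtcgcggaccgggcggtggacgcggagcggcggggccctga

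Cdk1: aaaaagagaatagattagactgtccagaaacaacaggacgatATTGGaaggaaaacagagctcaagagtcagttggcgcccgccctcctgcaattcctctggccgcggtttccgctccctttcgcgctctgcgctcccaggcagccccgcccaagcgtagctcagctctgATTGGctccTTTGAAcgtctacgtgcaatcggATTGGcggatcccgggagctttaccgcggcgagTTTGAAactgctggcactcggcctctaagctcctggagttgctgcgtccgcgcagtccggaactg

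Plk1: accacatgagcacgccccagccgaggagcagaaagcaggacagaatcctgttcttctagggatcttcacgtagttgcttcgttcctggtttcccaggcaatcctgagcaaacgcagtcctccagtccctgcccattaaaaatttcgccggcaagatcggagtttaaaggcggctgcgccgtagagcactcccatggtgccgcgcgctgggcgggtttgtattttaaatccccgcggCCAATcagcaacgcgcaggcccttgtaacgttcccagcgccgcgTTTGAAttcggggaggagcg

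Ccnb2, a mitotic cyclin, measured 4.10, 3.10 and 3.61 CPM in WT and 13.5, 15.2 and 14.8 CPM in K146Q mice (log2 change 1.88, SE 0.15, adjusted p = 0.000135). Cdk1, the kinase that cyclin B activates, measured 7.33, 3.86 and 8.18 CPM in WT and 22.6, 22.1 and 22.2 CPM in K146Q mice (log2 change 1.77, SE 0.25, adjusted p = 0.00140). Plk1, a kinase of spindle assembly, measured 4.80, 3.48 and 6.07 CPM in WT and 17.7, 14.2 and 16.004 CPM in K146Q mice (log2 change 1.66, SE 0.20, adjusted p = 0.000769). In the 3 genes the K146Q libraries lay within a narrow band above the WT libraries. TTTGAA on either strand was present in 25 of 33 windows (75.8%) of 31 matched mitosis genes and in 17.9% of all 32851 RefSeq promoter windows. CCAAT on either strand was in 75.8% of the mitosis windows and 37.4% of all windows. The search was for letters alone, overlaps were allowed, and a match is not a binding site.

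Other members of the list gave the same picture at different levels. Tpx2, a spindle assembly factor, rose from 8.31 ± 1.62 CPM in WT to 34.8 ± 0.810 CPM in K146Q mice (log2 change 2.02, SE 0.14, adjusted p = 9.63e-05), and Ube2c, a ubiquitin-conjugating enzyme of mitotic exit, from 6.61 ± 2.63 CPM in WT to 25.5 ± 2.31 CPM in K146Q mice. Top2a, the topoisomerase of dividing cells, rose from 18.1 ± 3.19 CPM in WT to 54.8 ± 10.8 CPM in K146Q mice, Mki67 from 30.7 ± 6.73 CPM in WT to 84.5 ± 16.6 CPM in K146Q mice and the transcription factor Foxm1 from 5.58 ± 1.38 CPM in WT to 16.3 ± 3.21 CPM in K146Q mice.

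The median change was smaller among DNA replication genes. Of 36 tested, 22 were called higher (61.1%) and none lower, with a median log2 change of 0.53, and 14 were called without WT 1 or without K146Q 62. Tk1, a thymidine kinase, measured 6.95, 5.57 and 7.16 CPM in WT and 16.6, 17.4 and 17.4 CPM in K146Q mice (log2 change 1.33, SE 0.13, adjusted p = 0.000360). Prim1, the primase, rose from 8.64 ± 1.15 CPM in WT to 22.1 ± 3.02 CPM in K146Q mice and Rrm2, a ribonucleotide reductase subunit, from 7.04 ± 1.82 CPM in WT to 16.9 ± 3.44 CPM in K146Q mice. The sliding clamp Pcna rose from 48.4 ± 4.38 CPM in WT to 67.3 ± 3.30 CPM in K146Q mice (log2 change 0.47, SE 0.090, adjusted p = 0.00538). TTTGAA was in 11.8% of 34 windows of 29 matched replication genes, and CCAAT in 58.8%.

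The G1 regulators were mixed, with 8 of 22 called higher (36.4%, background 19.7%) and 6 lower (27.3%, background 18.1%). With any 1 library left out, between 2 (WT 2 or K146Q 62) and 5 were called higher, and without K146Q 62, 3 were called lower. The number called higher was 3 with totals taken without the top 10 genes, and 5 with no filter or with edgeR. E2f8, a repressor of the E2F family, rose from 3.32 ± 0.903 CPM in WT to 8.40 ± 2.65 CPM in K146Q mice. Rb1, the retinoblastoma protein that restrains E2F factors, fell from 43.9 ± 2.32 CPM in WT to 24.8 ± 3.47 CPM in K146Q mice (log2 change -0.82, SE 0.12, adjusted p = 0.00155). The D cyclin Ccnd1 was 196 ± 66.3 CPM in WT and 269.8 ± 29.97 CPM in K146Q mice without passing the test (adjusted p = 0.143).

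**Figure D3:**
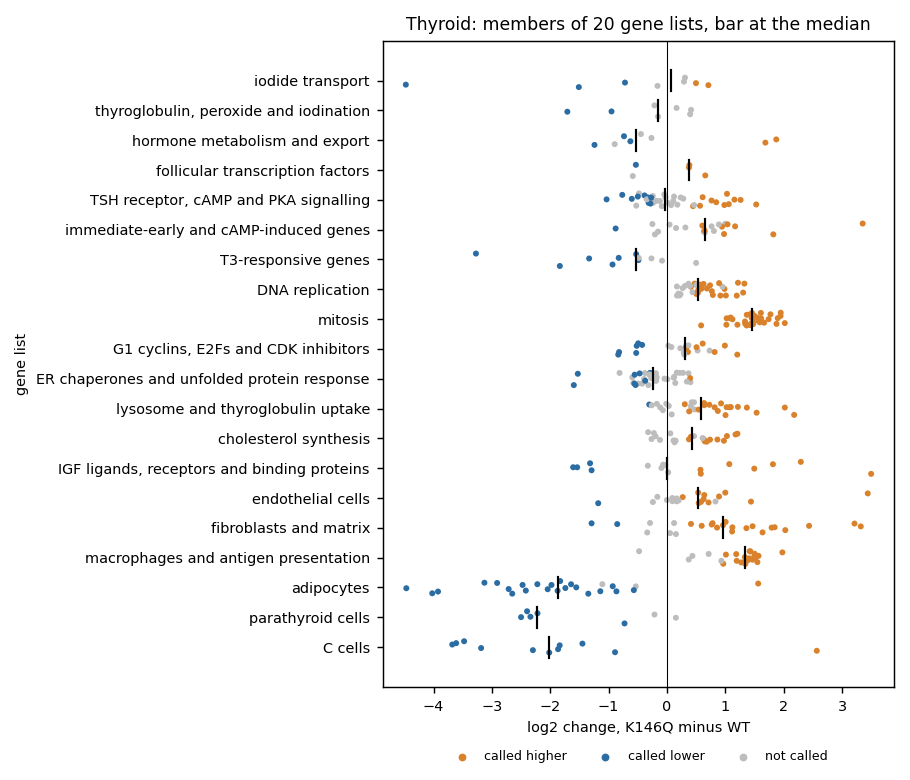
Log2 change of each tested member of 20 gene lists (x axis), by list (y axis), with orange for genes called higher, blue for genes called lower, gray for genes not called, and a bar at each list's median. Every mitosis gene lies to the right of 0 (median 1.46), whereas adipocyte, parathyroid and C cell genes lie mostly to the left (medians -1.87, -2.22 and -2.02).

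Lysosomal proteases digest thyroglobulin to free thyroid hormone. Of 30 tested genes of lysosomes and thyroglobulin uptake, 18 were called higher (60%, background 19.7%) and 1 lower (3.33%, background 18.1%), with a median log2 change of 0.59. In 7 of the 11 other settings none was called lower. The sum of the list was 12276, 8807 and 14215 CPM in WT and 26703, 25728 and 24386 CPM in K146Q mice. Ctsb measured 1511, 1005 and 1688 CPM in WT and 6745, 5949 and 5939 CPM in K146Q mice (log2 change 2.18, SE 0.20, adjusted p = 0.000231), and Ctsl measured 820.2, 489 and 842 CPM in WT and 2942, 2934 and 2613 CPM in K146Q mice (log2 change 2.02, SE 0.21, adjusted p = 0.000435). Psap, the precursor of lysosomal lipid-binding proteins, rose from 2566 ± 706 CPM in WT to 5796 ± 279.8 CPM in K146Q mice, Npc2, a cholesterol carrier, from 750.4 ± 71.9 CPM in WT to 1948 ± 303 CPM in K146Q mice, and the protease Lgmn from 101 ± 15.7 CPM in WT to 215 ± 17.03 CPM in K146Q mice. Lrp2, or megalin, an apical receptor that binds thyroglobulin, was 247 ± 8.27 CPM in WT and 222 ± 45.1 CPM in K146Q mice without passing the test (log2 change -0.17, SE 0.15, adjusted p = 0.382). Macrophages, whose markers also rose, express many of these proteases, and their part in these values was not tested.

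Secretory-pathway chaperones fold thyroglobulin. In the list of 40 ER chaperone and unfolded protein response genes, 1 was called higher and 8 lower, so that the share called lower was near the background of 18.1%, and the median log2 change was -0.25. The number called lower was 14 without WT 2, 4 without WT 1, WT 43 or K146Q 60, and 3 without K146Q 62. Derl3, a factor of ER-associated degradation, measured 443, 191 and 404 CPM in WT and 95.9, 91.9 and 139 CPM in K146Q mice (log2 change -1.60, SE 0.32, adjusted p = 0.00661). Chac1, a target of the ATF4 arm, fell from 9.46 ± 1.95 CPM in WT to 3.08 ± 1.24 CPM in K146Q mice. The gene called higher was Ssr2 (103 ± 4.44 CPM in WT and 136 ± 2.93 CPM in K146Q mice), a subunit of the translocon-associated complex. The main chaperone Hspa5 measured 5055, 2429 and 4685 CPM in WT and 2594, 2434 and 4151 CPM in K146Q mice (log2 change -0.38, SE 0.32, adjusted p = 0.382), and WT 2 was lower than both other WT libraries.

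Of 22 genes of cholesterol synthesis, 11 were called higher (background 19.7%) and none lower, with a median log2 change of 0.44. Hsd17b7, a reductase of the pathway, measured 9.41, 9.05 and 9.02 CPM in WT and 18.7, 20.9 and 24.7 CPM in K146Q mice (log2 change 1.17, SE 0.13, adjusted p = 0.000501). Srebf2, the transcription factor that induces the pathway, had the highest mean of the list and measured 171, 157 and 164 CPM in WT and 217, 298 and 282 CPM in K146Q mice (log2 change 0.68, SE 0.13, adjusted p = 0.00525). The lanosterol demethylase Cyp51 measured 18.7, 18.3 and 20.3 CPM in WT and 32.4, 37.02 and 51.1 CPM in K146Q mice (log2 change 1.03, SE 0.16, adjusted p = 0.00246), and Fdps, the farnesyl diphosphate synthase, rose from 28.4 ± 5.75 CPM in WT to 55.9 ± 7.85 CPM in K146Q mice. Fatty acid synthesis genes, held in the adipocyte list, did otherwise. Fasn, the fatty acid synthase, measured 1755, 1897 and 1447 CPM in WT and 544, 495 and 703 CPM in K146Q mice (log2 change -1.56, SE 0.17, adjusted p = 0.000498), while the elongase Elovl6 measured 235, 176 and 149 CPM in WT and 438, 547 and 667 CPM in K146Q mice (log2 change 1.56, SE 0.21, adjusted p = 0.00110) and was the single adipocyte-list gene called higher.

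In the IGF system, 7 of 16 tested genes were called higher (43.8%, background 19.7%) and 4 lower (25%, not far from the background of 18.1%), with a median log2 change of -0.0037, whose sign changed in several settings and was 0.44 without WT 43. Igf1 measured 43.4, 58.7 and 56.2 CPM in WT and 161, 229 and 172 CPM in K146Q mice (log2 change 1.82, SE 0.16, adjusted p = 0.000220), and Igf2 fell from 16.5 ± 1.74 CPM in WT to 5.23 ± 1.76 CPM in K146Q mice. The binding protein Igfbp5 measured 345, 349 and 461 CPM in WT and 1832, 2012 and 1781 CPM in K146Q mice (log2 change 2.29, SE 0.14, adjusted p = 6.85e-05), and Igfbp2 rose from 0.209 ± 0.204 CPM in WT to 7.87 ± 3.90 CPM in K146Q mice. Igfbp2 was below 0.5 CPM in every WT library and passed the filter through its K146Q libraries alone. The receptor substrates went opposite ways, with Irs1 falling from 20.9 ± 2.33 CPM in WT to 6.86 ± 0.860 CPM in K146Q mice and Irs2 rising from 36.6 ± 10.7 CPM in WT to 103 ± 22.8 CPM in K146Q mice.

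Of 31 antioxidant and glutathione enzymes, 7 were called higher and 7 lower, a share near the background in each direction. Without WT 2, 13 were called lower, and without K146Q 62, 3 were called higher. Prdx4, a peroxiredoxin of the ER, rose from 44.2 ± 7.35 CPM in WT to 80.6 ± 8.44 CPM in K146Q mice. Gpx3, a secreted glutathione peroxidase, measured 262, 252 and 287 CPM in WT and 128, 110.4 and 89.5 CPM in K146Q mice (log2 change -1.30, SE 0.14, adjusted p = 0.000411), and Gstm1 fell from 197 ± 44.4 CPM in WT to 87.8 ± 22.9 CPM in K146Q mice. Glycolysis and hypoxia genes gave 2 of 25 higher (8%, background 19.7%) and 7 lower (28%, background 18.1%), with Pdk1, a brake on pyruvate oxidation, the largest fall (82.6 ± 12.6 CPM in WT and 32.2 ± 2.30 CPM in K146Q mice). The number lower was 4 without WT 2, WT 43 or K146Q 83 and 3 without K146Q 62, and the number higher was 4 without WT 43, 3 without WT 2 and 1 without any of the other 4 libraries. Heat shock genes gave 3 of 15 higher and 3 lower, the background share in each direction (20% against 19.7% and 18.1%), and none was called lower without K146Q 62. Among 25 genes of tight junctions, keratins and polarity, 9 were higher (36%, background 19.7%) and 4 lower (16%, near the background of 18.1%). The number lower was 1 without K146Q 60, and 2 without WT 1, WT 2, K146Q 62 or K146Q 83. Cdh16, a cadherin of thyroid and kidney epithelium, rose from 269.6 ± 104 CPM in WT to 586 ± 72.96 CPM in K146Q mice. Cldn8 fell from 32.9 ± 7.999 CPM in WT to 11.5 ± 2.47 CPM in K146Q mice.

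The markers of cells around the follicles moved with genotype. In bulk tissue more cells of a type cannot be told apart from more RNA per cell, or from the same genes expressed in other cell types. Fibroblast and matrix genes were called higher in 18 of 25 cases (72%, background 19.7%) and lower in 2 (8%, background 18.1%). Their median log2 change was 0.96, and their sum was 3668, 3219 and 3949 CPM in WT and 6949, 8117 and 8266 CPM in K146Q mice. Fn1, or fibronectin, measured 139.5, 123 and 194 CPM in WT and 1034, 1613 and 1601 CPM in K146Q mice (log2 change 3.21, SE 0.23, adjusted p = 9.80e-05). Timp1, a metalloprotease inhibitor, rose from 4.33 ± 1.96 CPM in WT to 45.5 ± 3.40 CPM in K146Q mice, the crosslinking enzyme Lox from 9.90 ± 2.88 CPM in WT to 54.3 ± 4.47 CPM in K146Q mice and Col1a1 from 199.8 ± 47.01 CPM in WT to 684 ± 89.2 CPM in K146Q mice. The 2 lower were Pdgfra (48.1 ± 13.2 CPM in WT and 18.9 ± 2.63 CPM in K146Q mice) and Dcn (293 ± 22.8 CPM in WT and 163 ± 29.3 CPM in K146Q mice), a receptor and a proteoglycan of fibroblasts.

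Endothelial genes gave 11 of 21 higher (52.4%, background 19.7%) and 1 lower (4.76%, background 18.1%), with a median log2 change of 0.53. Sox17, a transcription factor of arterial endothelium, measured 13.1, 9.43 and 8.66 CPM in WT and 124, 114 and 111 CPM in K146Q mice (log2 change 3.44, SE 0.15, adjusted p = 1.38e-05), whereas the pan-endothelial Pecam1 was 188 ± 8.36 CPM in WT and 227 ± 8.09 CPM in K146Q mice (log2 change 0.27, SE 0.082, adjusted p = 0.0355), a call that was lost in each fit with a library left out (log2 change 0.23 to 0.29). Flt4 rose from 32.2 ± 3.20 CPM in WT to 88.1 ± 8.33 CPM in K146Q mice, and Prox1, which marks lymphatic endothelium, fell from 3.84 ± 0.581 CPM in WT to 1.41 ± 0.151 CPM in K146Q mice. Of 22 angiogenic ligands, 8 were higher (36.4%, background 19.7%) and 4 lower (18.2%, the background being 18.1%). Angpt2 measured 4.80, 5.50 and 3.37 CPM in WT and 20.97, 27.2 and 23.4 CPM in K146Q mice (log2 change 2.28, SE 0.19, adjusted p = 0.000165), Ctgf measured 749.7, 312 and 1124 CPM in WT and 3700.3, 4278 and 3385 CPM in K146Q mice (log2 change 2.56, SE 0.41, adjusted p = 0.00269), and Cyr61 rose from 13.04 ± 5.06 CPM in WT to 79.99 ± 5.29 CPM in K146Q mice. Fgf10 fell from 7.09 ± 1.91 CPM in WT to 2.06 ± 0.922 CPM in K146Q mice.

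Basement membrane genes gave 10 of 21 higher (47.6%) and 4 lower (19.05%, near the background of 18.1%), and the collagen IV chains divided. Col4a1 measured 704, 648 and 674 CPM in WT and 1242, 1429 and 1596 CPM in K146Q mice (log2 change 1.07, SE 0.13, adjusted p = 0.000733), and Col4a3 measured 40.7, 51.9 and 36.3 CPM in WT and 13.2, 15.9 and 14.1 CPM in K146Q mice (log2 change -1.53, SE 0.15, adjusted p = 0.000287). Smooth muscle and pericyte genes gave 8 of 12 higher (66.7%, background 19.7%) and 1 lower (8.33%, background 18.1%). Their changes were smaller, such as Acta2 (47.8 ± 3.36 CPM in WT and 64.7 ± 3.005 CPM in K146Q mice).

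Macrophage and antigen presentation genes were called higher in 19 of 24 cases (79.2%, background 19.7%) and lower in none, with a median log2 change of 1.34. Their sum was 1546, 1074 and 1398 CPM in WT and 3952, 3280.2 and 3068 CPM in K146Q mice. Cd74, the invariant chain of MHC class II, measured 471, 386 and 404 CPM in WT and 1430.1, 1186 and 1132 CPM in K146Q mice (log2 change 1.57, SE 0.14, adjusted p = 0.000215), and the complement component C1qa rose from 60.1 ± 14.1 CPM in WT to 165 ± 22.1 CPM in K146Q mice. Csf1r, the receptor that macrophages depend on, measured 60.4, 47.5 and 59.8 CPM in WT and 111, 109 and 117 CPM in K146Q mice (log2 change 1.01, SE 0.11, adjusted p = 0.000434), and Fcgr1 rose from 1.91 ± 0.164 CPM in WT to 8.97 ± 0.440 CPM in K146Q mice. Of the 10 tested T and B lymphocyte genes only Cd4, which macrophages can also express, was called higher (2.20 ± 0.308 CPM in WT and 5.48 ± 0.0842 CPM in K146Q mice); without WT 2, 7 of them were called higher.

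Markers of C cells, parathyroid and fat were lower in K146Q libraries. Of 11 tested C cell genes, 10 were called lower (90.9%, background 18.1%) and 1 higher (9.09%, background 19.7%), with a median log2 change of -2.02. Calca, which encodes calcitonin, measured 2158, 2069 and 2591 CPM in WT and 309.8, 163 and 165 CPM in K146Q mice (log2 change -3.48, SE 0.25, adjusted p = 0.000104). Calcb, the related gene for a second calcitonin gene-related peptide, was the gene called higher (0.105 ± 0.183 CPM in WT and 3.06 ± 0.835 CPM in K146Q mice). Calcb was below 0.5 CPM in every WT library and passed the filter through its K146Q libraries alone. Ret fell from 82.1 ± 12.9 CPM in WT to 44.4 ± 10.3 CPM in K146Q mice, the smallest change of the list.

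Of 7 parathyroid genes, 5 were called lower (71.4%, background 18.1%), none higher, and the median log2 change was -2.22. Pth, the parathyroid hormone, measured 3240.1, 6012 and 3917 CPM in WT and 1489, 489.9 and 576 CPM in K146Q mice (log2 change -2.50, SE 0.42, adjusted p = 0.00323). The calcium receptor Casr fell from 230.3 ± 82.9 CPM in WT to 44.5 ± 20.5 CPM in K146Q mice and Gcm2, which specifies the parathyroid, from 44.04 ± 22.9 CPM in WT to 8.27 ± 4.05 CPM in K146Q mice. In each of these genes WT 2 was the highest WT library and K146Q 60 the highest K146Q library. Trpm6, a magnesium channel, was not called (51.3 ± 7.98 CPM in WT and 43.997 ± 4.67 CPM in K146Q mice; adjusted p = 0.230).

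Adipocyte genes were called lower in 22 of 25 cases (88%, background 18.1%), with a median log2 change of -1.87. Adipoq, or adiponectin, measured 59.4, 74.7 and 83.6 CPM in WT and 35.4, 17.6 and 18.6 CPM in K146Q mice (log2 change -1.64, SE 0.26, adjusted p = 0.00251), Plin1, which coats the lipid droplet, measured 106, 108 and 101 CPM in WT and 23.3, 12.2 and 15.1 CPM in K146Q mice (log2 change -2.65, SE 0.21, adjusted p = 0.000133), and Lep fell from 9.48 ± 3.05 CPM in WT to 0.697 ± 0.609 CPM in K146Q mice. Nerve and Schwann cell genes gave 7 of 12 lower (58.3%, background 18.1%) and 1 higher (8.33%, background 19.7%). Gldn fell from 3.04 ± 1.64 CPM in WT to 0.517 ± 0.0188 CPM in K146Q mice and Sox10 from 3.25 ± 0.193 CPM in WT to 1.01 ± 0.298 CPM in K146Q mice, while the neuronal tubulin Tubb3 rose from 2.09 ± 0.414 CPM in WT to 10.3 ± 1.03 CPM in K146Q mice.

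No skeletal muscle gene of 21 and no red blood cell gene of 8 was called in either direction. Acta1, the skeletal actin, measured 103, 1086 and 1950.0 CPM in WT and 1115, 265 and 217 CPM in K146Q mice (log2 change -0.59, SE 1.09, adjusted p = 0.702), so the spread within each genotype was larger than the difference between them. Without WT 1, whose muscle sum was the lowest, 8 skeletal muscle genes were called lower, and without WT 43 the median log2 change of the list turned from -0.60 to 0.16. Of the thymocyte genes Rag1 was read in WT 2 alone, and 1 of the 3 tested, Cd1d1, was called lower. Airway and oesophagus genes gave 1 of 12 higher, the mucin Muc5ac (0.606 ± 0.462 CPM in WT and 7.70 ± 1.53 CPM in K146Q mice), and 1 lower. Each share was 8.33%, below the backgrounds of 19.7% and 18.1%.

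The cartilage list had 4 of 8 tested genes higher (50%, background 19.7%) and 1 lower (12.5%, background 18.1%). Comp, a matrix protein of cartilage and tendon, measured 1.39, 0.886 and 0.902 CPM in WT and 52.5, 77.5 and 51.2 CPM in K146Q mice (log2 change 5.28, SE 0.21, adjusted p = 1.38e-05), and Lect1, or chondromodulin, measured 16.99, 2.85 and 10.1 CPM in WT and 187, 178 and 185 CPM in K146Q mice (log2 change 4.43, SE 0.52, adjusted p = 0.000666). Col2a1, Acan and Matn1, which define cartilage, stayed below 1 CPM in every library and were not tested. Sox9, which thyroid epithelium can also express, rose from 246 ± 32.6 CPM in WT to 407 ± 47.9 CPM in K146Q mice.

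**Figure D4:**
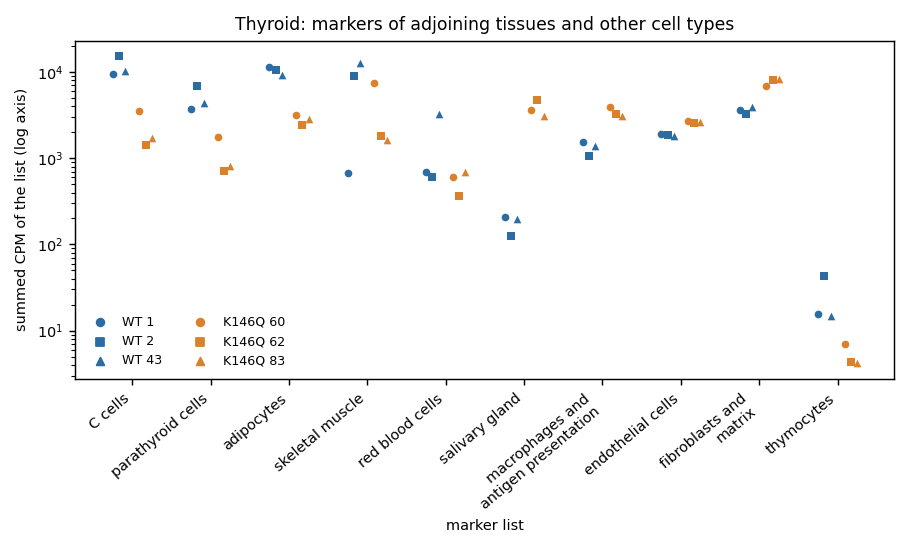
Summed CPM (log axis) of 10 marker lists (x axis), with a symbol for each mouse (blue WT, orange K146Q). C cell, parathyroid and adipocyte sums are lower in all K146Q libraries and salivary, macrophage, endothelial and fibroblast sums higher, while skeletal muscle runs from 679.8 CPM in WT 1 to 12657 CPM in WT 43. In the K146Q salivary sums (3635, 4740 and 3113 CPM), Dcpp3 alone measured 2544, 3513 and 2221 CPM, while 3 genes of that list were called lower. In the C cell sums, Chga alone measured 6741, 12829 and 7454 CPM in WT and 3178, 1148 and 1484 CPM in K146Q mice.

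The share of these tissues in the changes of other genes was not tested. C cell sums were 9383, 15322 and 10397 CPM in WT and 3581, 1409.9 and 1739 CPM in K146Q mice. Of these sums, Chga alone measured 6741, 12829 and 7454 CPM in WT and 3178, 1148 and 1484 CPM in K146Q mice. WT 2 had the highest C cell sum, whereas its Calca value was the lowest of the WT libraries. The part of other cell types in the Chga values was not tested. Parathyroid sums were 3747, 6849.6 and 4408 CPM in WT and 1779.5, 710.02 and 817 CPM in K146Q mice. Adipocyte sums were 11312, 10595 and 9207 CPM in WT and 3204, 2409 and 2851 CPM in K146Q mice. Follicular transcription factors, by contrast, summed to 1430.3, 1358 and 1396 CPM in WT and 1523, 1752 and 1502 CPM in K146Q mice.

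The difference between thyroid and pituitary in the response to genotype was tested in a joint fit of 12 libraries, with the same mouse numbers in both tissues. At an adjusted p under 0.05, 4702 of 16492 genes (28.5%) had a genotype change that differed between the tissues. With mouse as a block, 4854 genes were called, and 4377 were called in both fits. The 5 largest rises and 5 largest falls of thyroid, are set beside pituitary as a description, since they were chosen by their thyroid change. Cck was 2.27, 1.37 and 3.53 CPM in the pituitary of WT mice and 1.81, 3.57 and 3.16 CPM in that of K146Q mice. Slc5a8 was 14.2, 9.89 and 14.1 CPM in WT and 7.48, 8.52 and 12.4 CPM in K146Q pituitary. Greb1 and Scd1 were called lower in pituitary also, by log2 changes of -1.53 (adjusted p = 0.00608) and -0.62 (adjusted p = 0.0160). Greb1 measured 79.4, 86.5 and 56.1 CPM in WT and 15.7, 28.4 and 34.7 CPM in K146Q pituitary.

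**Figure D5:**
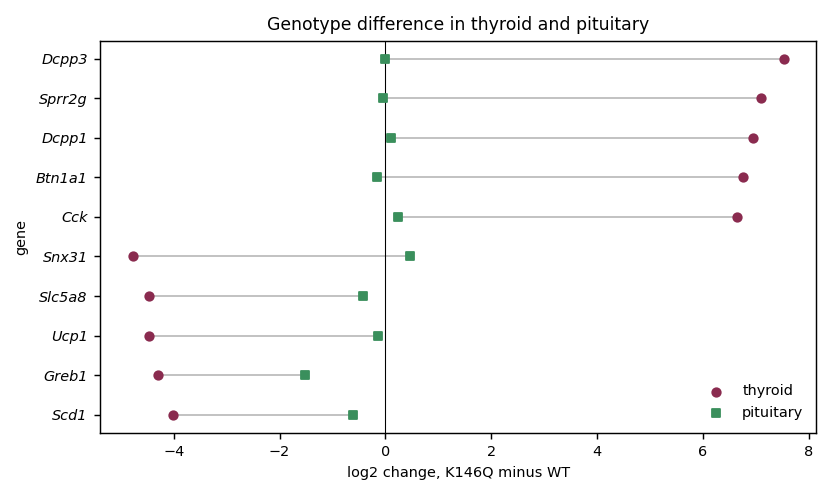
Log2 change of K146Q against WT (x axis) in thyroid (circles) and pituitary (squares) for the 5 genes with the largest rise and the 5 with the largest fall in thyroid (y axis), each pair joined by a gray line. Pituitary changes run from -1.53 for Greb1 to 0.46 for Snx31, and thyroid changes from -4.77 for Snx31 to 7.53 for Dcpp3.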

How the data were processed

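Total RNA of thyroid from 3 WT and 3 K146Q mice was sequenced on an Illumina HiSeq. The submitters' processing notes name bcl2fastq 2.17, Bowtie2 2.1.0, RSEM 1.2.15 and mm10, without giving their roles. The authors deposited a normalized signal per gene, reads scaled to an adjusted library size, called CPM here. All values were whole multiples of what 1 read is worth, so reads were recovered (18611998 to 21230050 per library). Floors based on these reads cover counting error only. The intervals given with log2 changes come from the limma fit instead, and they reflect the spread between mice. The deposited columns logFC, logCPM, LR, PValue and FDR, which hold the authors' own comparison, were not used, nor was the hypothalamus table.

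Genes that reached 0.5 CPM in 3 or more of the 6 libraries were tested on log2(CPM + 0.5) with limma 3.58.1 in R 4.3.3, with a mean-variance trend capped at the 99th percentile of the mean and Benjamini-Hochberg adjustment. The cap was introduced because an earlier analysis of these data found that the uncapped trend extrapolates for Tg. Count tests of the recovered reads with DESeq2 1.42.0 and the quasi-likelihood fit of edgeR 4.0.16, other pseudocounts, filters and scalings, and fits without each library were alternatives. Scripts were tested on simulated data. The genotypes share no mouse number, so thyroid was tested unpaired. The same mouse numbers label the thyroid and pituitary libraries and were taken to be the same mice. The deviations of a mouse from its group means correlated between its tissues at r = 0.0744 to 0.304 over 12395 genes. Values for unlike mouse numbers are not given beside these, so they do not check the pairing. Mouse was a block in an alternative of that comparison.

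Named genes were the 12 largest rises and falls (called, not overlapping, mean at least 1 CPM), the 10 highest in WT, Thrb, Thra, the thyroid genes the study names, and the extreme called, highest and defining members of each list. Further list members, such as Nr4a1, Fos, Mki67, Top2a, Pcna and Csf1r, were chosen after their values were seen. Some genes that the rule covers are not reported here, and 4 lists and their counts were reduced by them after values were seen. Members and lists were chosen with earlier results of these data known. Coordinates are from GENCODE M21 (GRCm38, the build mm10), and promoter sequences from RefSeq.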

Additional observations from a re-analysis of the deposited data

Results flagged for a closer look

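The genotype changes of the 5 largest rises and 5 largest falls of thyroid were set beside those in pituitary. This used a joint limma fit of 12 libraries, with the same 6 mouse numbers in both tissues. In that fit, 28.5% of 16492 genes were called for the difference between tissues. All 10 were called, but they were picked by their thyroid change, so the differences are given as descriptions, without p-values. The thyroid minus pituitary log2 difference was 7.54 for Dcpp3, 7.15 for Sprr2g and 6.83 for Dcpp1. It was 6.91 for Btn1a1 and 6.403 for Cck. Sprr2g, Dcpp1 and Btn1a1 were too low to be tested in pituitary alone, with no pituitary library above 0.5 CPM, and Sprr2g and Btn1a1 entered the joint fit through their K146Q thyroid libraries alone.

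Among the falls, the difference was -5.23 for Snx31, -4.06 for Slc5a8 and -4.32 for Ucp1. Ucp1 and Snx31 were below 0.5 CPM in every pituitary library, and Snx31 entered the joint fit through its WT thyroid libraries alone. For Greb1 the difference was -2.78 and for Scd1 -3.40, and both genes were also called lower in pituitary.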

How the results depend on the processing

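The number of thyroid genes called was 5746, and lay between 5365 and 6089 in 9 alternatives with the same test or another tool on the same genes and libraries. It was 5718 with no filter and 4946 with at least 1 CPM in every library. Leaving out a library gave 3612 (K146Q 62) to 5119 calls, with 1942 to 2668 higher and 1670 to 2515 lower, and fewer samples were then tested. The thyroid against pituitary calls were 4702, and 2794 (K146Q 62) to 4268 (WT 1) with a mouse left out; with mouse as a replicate block they were 4854. Slc26a4 reversed from 0.31 to -0.248 with edgeR, -0.239 with DESeq2 and -0.778 without WT 2 (up to 0.88 without WT 1). Acta1, which did not pass the test, ranged from -1.86 without WT 1 to 0.26 without WT 43. The cause was not tested. The Ucp1 difference between tissues was lost without WT 2 (adjusted p = 0.0516). With 3 mice per genotype, changes of genes near 0.5 CPM rest on few reads.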
